A study of Mus musculus with 16 samples.

Results

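The E2F and retinoblastoma (RB) family was followed here as 9 genes: the E2F transcription factors E2f1, E2f2, E2f3, E2f4, E2f7 and E2f8, and the pocket proteins Rb1, Rbl1 and Rbl2. They were taken by name out of 23999 gene symbols and chosen by the level of E2f2, which was lower in sarcomas than in marrow. Differences between these tissues are therefore given for the family as a description with no test. All 9 genes passed the filter on low counts.

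RNA was sequenced from 16 mouse libraries in 3 groups that all carry NPM1cA, a mutant nucleophosmin of acute myeloid leukaemia. The first group is 1 sarcoma of mouse 841, labelled NPM1cA and, in the design text, wild type for SMC3. The second is 6 myeloid sarcomas, solid leukaemic tumours outside the marrow, from 4 NPM1cA/SMC3+/- mice: 1267, 1268_1270, 2721 with 2 tumours and 948 with 2 tumours. The third is AML-infiltrated whole bone marrow of 9 NPM1cA/SMC3+/- mice, of which 1267 and 2721 also gave a sarcoma. Whether 1268_1270 is a single mouse or a pool of 2 is not stated, and it was counted as 1. The labels give no age, no treatment, no driver of the NPM1cA allele and no leukaemia-free mouse, and the NPM1cA genotype rests on 1 tumour. Tumours went whole into Trizol and marrow lost its red cells first, so tissue and handling cannot be told apart.

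E2F factors bind promoters of genes for DNA replication and cell division. E2F1, E2F2 and E2F3 are mainly activators, E2F4 works mostly as a repressor with a pocket protein, and E2F7 and E2F8 are atypical repressors that need no DP partner. The pocket proteins RB1, p107 (Rbl1) and p130 (Rbl2) hold E2Fs in check until cyclin-dependent kinases phosphorylate them. In mouse blood formation E2f2 is known for its part in the last divisions and maturation of erythroid cells and for restraining T cell division. Several genes of the family are themselves E2F targets.

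Because of that feedback, the promoters of the family were searched for the E2F word TTTCCCGC and its variants TTTGGCGC, TTTCGCGC and TTTGCCGC, on both strands. RefSeq windows on GRCm38.p6 run from 250 bases before to 50 bases after a gene's start, and 7 of the 9 members have one. A word was found for 4 of these 7 members, E2f2, E2f3, E2f7 and Rbl1, and not in the windows of E2f1, E2f8 and Rbl2. A window covers only 1 annotated start, which need not be the main start of the gene. Sequence at other starts, those of E2f1 included, was not searched, so a missing word does not show a promoter without one. Over all windows, 744 of 32851, or 2.26%, held one of the words. The windows of E2f2, E2f3 and Rbl1 are shown because E2f2 is the gene the results turn on and the others hold a different word close to the start. They read 5′ to 3′ in the direction of transcription, with the word in capitals.
E2f2: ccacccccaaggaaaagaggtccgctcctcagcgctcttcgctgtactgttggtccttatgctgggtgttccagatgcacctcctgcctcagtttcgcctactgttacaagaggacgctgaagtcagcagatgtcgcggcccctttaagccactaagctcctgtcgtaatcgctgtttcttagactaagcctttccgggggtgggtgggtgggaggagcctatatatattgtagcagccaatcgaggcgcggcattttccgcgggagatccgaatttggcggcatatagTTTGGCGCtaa
E2f3: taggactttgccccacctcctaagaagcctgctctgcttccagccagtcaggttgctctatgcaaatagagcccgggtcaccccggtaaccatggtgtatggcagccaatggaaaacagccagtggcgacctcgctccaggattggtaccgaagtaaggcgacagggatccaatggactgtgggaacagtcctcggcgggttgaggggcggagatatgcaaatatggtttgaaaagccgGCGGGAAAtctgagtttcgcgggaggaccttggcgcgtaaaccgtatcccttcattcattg
Rbl1: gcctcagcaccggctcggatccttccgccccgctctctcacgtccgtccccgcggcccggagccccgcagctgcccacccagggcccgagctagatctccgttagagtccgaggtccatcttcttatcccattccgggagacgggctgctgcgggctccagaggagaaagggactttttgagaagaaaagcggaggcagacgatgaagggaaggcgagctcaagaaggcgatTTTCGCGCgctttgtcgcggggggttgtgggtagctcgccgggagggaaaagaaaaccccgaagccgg
The E2f2 window is chr4:136172024-136172323 on the plus strand, and its TTTGGCGC begins 39 bases after the annotated start. The E2f3 window is chr13:29986014-29986313 on the minus strand, and it holds TTTCCCGC on the opposite strand, 11 bases before the start. The Rbl1 window is chr2:157204485-157204784 on the minus strand, and its TTTCGCGC begins 18 bases before the start. A second window each of E2f2 and E2f3 held none of the words. A word in a window is a match of letters and not a bound site. Among the other genes of the pathway, 12 of 26 genes of the S phase list with a window (46.2%) and 1 of 14 of the G2 and mitosis list (7.14%) held a word. The word TTTGAA of cell-cycle homology regions was also searched and lay in 17.9% of all windows.

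Total counts were 9797201 in the sarcoma of mouse 841, 12072482 to 33605464 in the SMC3+/- sarcomas and 12395041 to 39197660 in marrow. Levels are CPM, counts scaled to the library total, after TMM scaling, and folds are log2 differences from edgeR with their SE. Transcripts longer than 6 kb were low in 4 libraries, the marrows of mice 737, 779 and 782 and tumour 1 of mouse 948. Their median log2 deviation from the median library lay between -2.29 and -1.19, against -0.98 to 0.60 in the other 12. Smc3 stood at 137 CPM in the sarcoma labelled wild type, at 63.6 to 217 CPM in the SMC3+/- sarcomas and at 3.53 to 233 CPM in marrow. Its level thus does not separate the genotype labels. Marrows 737, 779 and 782, low in long transcripts, held 5.48, 3.53 and 8.46 CPM of Smc3, and the other marrows 136 to 233 CPM. Summed pan-leukocyte genes reached 6869 CPM in the sarcoma of mouse 841, 767 to 15498 CPM in the SMC3+/- sarcomas and 8472 to 15729 CPM in marrow. Summed adipocyte genes reached 137, 300 to 55001 and 17.8 to 201 CPM in the same order of groups. Summed leukaemic progenitor genes, among them Mpo, Elane and Hoxa9, reached 12750 CPM in the sarcoma of mouse 841, 398 to 32905 CPM in the SMC3+/- sarcomas and 2763 to 42849 CPM in marrow. Sarcoma 1268_1270 had the lowest leukaemic progenitor and pan-leukocyte sums and the highest adipocyte sum.

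**Figure D1:**
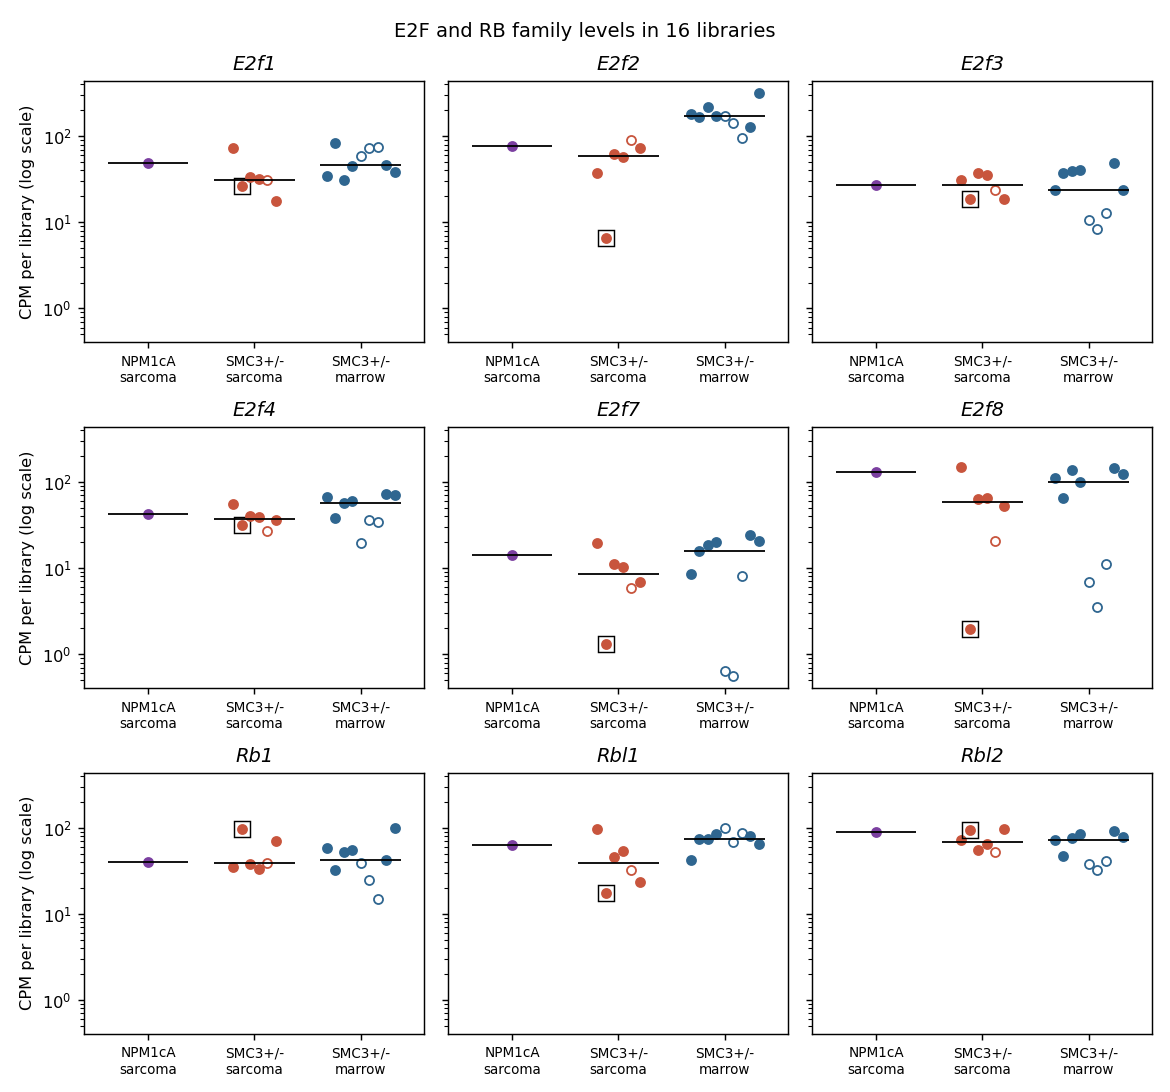
Level of each of the 9 genes in the 16 libraries, in CPM on a log axis, for the NPM1cA sarcoma (left), the SMC3+/- sarcomas (middle) and SMC3+/- marrow (right). Each point is a library and each line a group median, open points are the 4 libraries low in long transcripts, and the boxed point is sarcoma 1268_1270. All 6 SMC3+/- sarcoma libraries lie below the lowest marrow for E2f2 (95.4 CPM), and the points of the other 8 genes overlap between the tissues.

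The activator E2f2 was the member whose levels separated the tissues. In the SMC3+/- sarcomas it stood at 37.1 CPM in mouse 1267, 6.53 CPM in 1268_1270, 61.3 and 57.0 CPM in the tumours of mouse 2721 and 90.9 and 71.9 CPM in those of mouse 948. In the marrows it ran from 95.4 CPM in mouse 782 over a median of 171 CPM to 318 CPM in mouse 949. Every sarcoma thus lay below every marrow, sarcoma 1268_1270 far below the rest and tumour 1 of mouse 948, itself low in long transcripts, just below the lowest marrow. The sarcoma of mouse 841, at 77.0 CPM, also lay below all marrows. E2f2 averaged 46.4 ± 32.5 CPM in SMC3+/- sarcomas (SD, n = 4) and 177 ± 63.3 CPM in marrow (SD, n = 9), a log2 difference of -2.04 (SE 0.54). In the 2 mice that gave both tissues, the paired log2 difference was -2.16 (SE 0.49). In bulk tissue, fewer cells that express a gene and less of its RNA per cell cannot be told apart.

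E2f2 was the 1 member of 9 whose groups did not overlap in the lower direction, and no member did so in the higher direction. Over all 14730 genes tested, 0.149% lay wholly lower in sarcomas and 4.43% wholly higher. It was also the 1 member called lower by edgeR, where 8 of the 14730 genes (0.0543%) were called lower and 662 (4.49%) higher. The call of E2f2 was kept under 9 of 25 alternatives and lost under 16, and since E2f2 was picked for this contrast, nothing is read from these counts. Without sarcoma 1268_1270 no gene was called lower, E2f2 included, and its log2 difference was -1.68 (SE 0.42). It was -2.23 (SE 0.58) once the 4 libraries short of long transcripts were left out, and -1.87 (SE 0.38) without these and 1268_1270.

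E2f1, the activator best known for also inducing apoptosis genes, overlapped between the tissues. It stood at 72.0 CPM in the sarcoma of mouse 1267, 26.2 CPM in 1268_1270, 33.6 and 31.5 CPM in the tumours of mouse 2721 and 30.95 and 17.7 CPM in those of mouse 948. The marrows ran from 31.1 CPM over a median of 46.6 CPM to 83.3 CPM. Mouse 1267 thus had the highest E2f1 in both of its tissues, whereas 2 of the 4 sarcoma mice lay below the marrow range. The log2 difference of E2f1 was -0.56 (SE 0.37), and it was -0.98 without sarcoma 1267 and -0.27 without sarcoma 948. In mouse 1267 the order of E2f1 and E2f2 was reversed between the tissues: its sarcoma held 26.1 CPM per kb of E2f1 transcript and 7.82 of E2f2, and its marrow 30.2 and 35.5.

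E2f3, the third activator, showed close means, 26.8 ± 8.16 CPM in sarcomas (SD, n = 4) and 27.3 ± 14.9 CPM in marrow (SD, n = 9). Sarcoma libraries lay between 18.6 CPM in 1268_1270 and 36.9 CPM in tumour 1 of mouse 2721. The spread in marrow followed the libraries low in long transcripts: marrows 737, 779 and 782 held 10.7, 8.46 and 12.9 CPM, and the other 6 averaged 35.5 ± 10.2 CPM (SD). The log2 difference was -0.09 (SE 0.46), and -0.51 (SE 0.31) without the 4 low libraries. The E2f3 transcript model is 5.097 kb long, and the part of RNA length in this spread was not tested.

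E2f4, the main partner of pocket proteins in resting cells, had 27.0 to 54.8 CPM in the sarcoma libraries and 19.5 to 72.4 CPM in marrow. Its means were 39.3 ± 11.2 CPM in sarcomas (SD, n = 4) and 50.7 ± 19.0 CPM in marrow (SD, n = 9). E2f4 was also lower in the 3 marrows low in long transcripts, at 30.1 ± 9.17 CPM there and 61.0 ± 12.6 CPM in the other 6 (SD), although its transcript model is only 1.993 kb long. The log2 difference between the tissues was -0.45 (SE 0.35), and the ranges overlapped for all 4 sarcoma mice. It was -0.67 once the 4 libraries short of long transcripts were left out and -0.22 without sarcoma 948.

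Of the atypical repressors, E2f8 had the widest spread of the 9 members in both tissues, with an SD in log2 CPM of 2.57 in sarcomas and 2.05 in marrow. E2f8 stood at 150 CPM in the sarcoma of mouse 1267, 1.95 CPM in 1268_1270, 62.9 and 65.0 CPM in the tumours of mouse 2721 and 20.8 and 52.9 CPM in those of mouse 948. In marrow it had 3.53 CPM in mouse 779, a median of 100.2 CPM and 144 CPM in mouse 919. The sarcomas thus hold both a level above every marrow and a level below every marrow, and for E2f8 the marrows split in 2 sets. Marrows 737, 779 and 782, the ones low in long transcripts, averaged 7.21 ± 3.87 CPM of E2f8, and the other 6 averaged 113 ± 28.7 CPM (SD). E2f7 had 1.31 CPM in sarcoma 1268_1270 and 5.93 to 19.5 CPM in the other 5 sarcoma libraries. In marrow it had 0.558 CPM in mouse 779, 0.645 CPM in 737 and 8.17 CPM in 782. The last was close to the 8.59 CPM of marrow 1103, so no clear gap set marrows 737, 779 and 782 apart. They were still the lowest in E2f7, averaging 3.12 ± 4.37 CPM, against 18.1 ± 5.43 CPM in the other 6 (SD). E2f7 rested on 6 and 8 counts in marrows 779 and 737, the thinnest values of the family. The log2 differences between sarcoma and marrow were -0.43 (SE 0.97) for E2f8 and -0.57 (SE 0.88) for E2f7. Once the 4 libraries short of long transcripts were left out, they were -0.85 (SE 0.72) and -0.99 (SE 0.58). The E2f8 difference ran from -1.27 without sarcoma 1267 over -0.08 without sarcoma 948 to -0.03 without 1268_1270. That of E2f7 was -1.14, -0.27 and -0.21 without the same mice, so single sarcomas decide the size of both.

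Among the pocket proteins, Rbl1, itself a known E2F target, had the largest shift. Its level was 96.8 CPM in the sarcoma of mouse 1267, 17.6 CPM in 1268_1270, 46.1 and 54.4 CPM in the tumours of mouse 2721 and 32.0 and 23.5 CPM in those of mouse 948. The marrows ran from 42.5 CPM over a median of 73.6 CPM to 99.2 CPM in mouse 737. The sarcomas of 1268_1270 and 948 lay below the marrow range and that of mouse 1267 near its top. The log2 difference was -0.73 (SE 0.38), and -0.47 (SE 0.35) without sarcoma 1268_1270. It was -1.26 without sarcoma 1267 and -0.41 without sarcoma 948. Like that of E2f1 and unlike those of the other members, the mean of Rbl1 was not lower in the 3 marrows low in long transcripts. It was 84.9 ± 15.3 CPM there and 69.8 ± 14.9 CPM in the other 6 (SD), although its transcript model is 4.862 kb long.

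Rb1, the tumour suppressor that names the family, and Rbl2, the pocket protein of resting cells, had levels in sarcoma that overlapped marrow. Rb1 stood at 34.7 CPM in the sarcoma of mouse 1267, 95.6 CPM in 1268_1270, 38.4 and 32.9 CPM in the tumours of mouse 2721 and 38.9 and 70.3 CPM in those of mouse 948, against 15.1 to 98.4 CPM in marrow. Rbl2 had 52.8 to 95.6 CPM in the sarcoma libraries and 32.5 to 91.6 CPM in marrow. Sarcoma 1268_1270, lowest of the sarcomas in E2f2, E2f7, E2f8 and Rbl1, was thus the highest in Rb1. The log2 differences were 0.18 (SE 0.44) for Rb1 and 0.18 (SE 0.32) for Rbl2, and without sarcoma 1268_1270 they were -0.29 (SE 0.46) and 0.01 (SE 0.34). In the 3 marrows low in long transcripts Rb1 averaged 26.0 ± 11.8 CPM and Rbl2 37.4 ± 4.55 CPM (SD). In the other 6 marrows they averaged 56.5 ± 22.6 and 75.3 ± 15.2 CPM (SD). Without the 4 low libraries the log2 differences were -0.003 (SE 0.39) for Rb1 and 0.03 (SE 0.25) for Rbl2. Exons of Rb1 overlap Rcbtb2 on the opposite strand and exons of Rbl2 overlap Aktip, and no strand setting is given, so reads of the neighbours cannot be told apart. Rcbtb2 and Aktip were also highest among the sarcomas in 1268_1270, at 91.2 and 85.0 CPM. In the other SMC3+/- sarcomas Rcbtb2 ran from 21.7 to 78.3 CPM and Aktip from 28.9 to 41.7 CPM. Exons of E2f8 overlap Gm2788 on the opposite strand, which was not analysed here.

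Per kb of transcript, which allows genes to be compared, E2f2 led the family in marrow and not in sarcoma. In the SMC3+/- sarcomas E2f4 came first at 19.7 ± 5.60 CPM per kb and E2f2 seventh at 9.79 ± 6.85 (SD, n = 4). In marrow E2f2 came first at 37.4 ± 13.4 CPM per kb, ahead of E2f4 at 25.4 ± 9.52 (SD, n = 9) and above it in 8 of 9 mice. Most neighbours in these orders differed by less than 1 SD of their difference, and in each tissue the step from E2f3 to E2f7 at the bottom alone exceeded it. E2f7 was last in both, with 1.73 ± 1.41 CPM per kb in sarcomas and 2.39 ± 1.63 in marrow.

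The make-up of the activator messages differed accordingly. E2f2 made up 19.5%, 9.48%, 39.8% and 56.6% of the summed per-kb level of E2f1, E2f2 and E2f3 in the sarcomas of mice 1267, 1268_1270, 2721 and 948. It made up 40.6% to 78.4% in the 9 marrows, with a mean of 58.9% ± 12.3 (SD). The sarcoma of mouse 948 lay inside the marrow range and the other 3 below it. The E2f1 share was 49.5% ± 18.5 in sarcomas and 32.4% ± 13.1 in marrow, and the E2f3 share 19.1% ± 5.52 and 8.69% ± 5.06 (SD). In the 3 marrows low in long transcripts E2f1 held 45.2% ± 9.23 and E2f3 3.80% ± 1.16, against 26.0% ± 9.52 and 11.1% ± 4.36 in the other 6 (SD). The 3 shares add up to the whole, so those of E2f1 and E2f3 move with E2f2. The summed activator level was 14.5 to 40.1 CPM per kb in sarcomas and 49.6 to 85.6 in marrow, and E2f2, which the selection used, is part of that sum. For the 3 pocket proteins the sum was similar, 36.7 ± 6.88 CPM per kb in sarcomas and 38.1 ± 8.23 in marrow (SD).

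**Figure D2:**
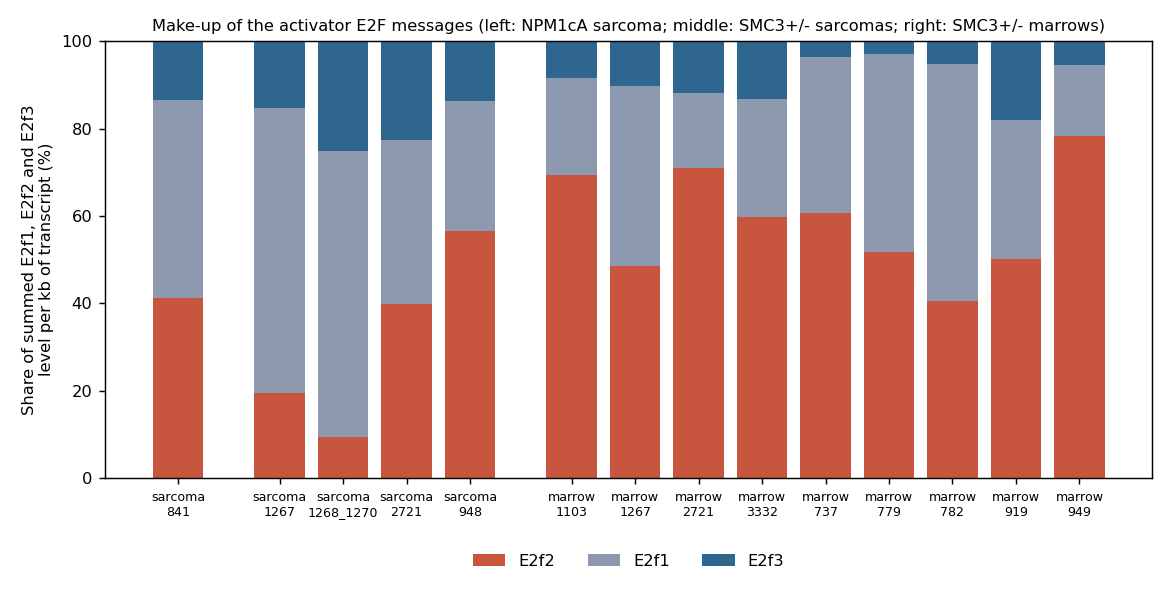
Share of E2f2, E2f1 and E2f3 in their summed level per kb of transcript (percent, stacked bars) for each mouse and tissue: the NPM1cA sarcoma on the left, the 4 SMC3+/- sarcomas in the middle and the 9 SMC3+/- marrows on the right. The E2f2 share spans 9.48% to 56.6% in the SMC3+/- sarcomas and 40.6% to 78.4% in marrow, with 41.3% in mouse 841.

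Summed pan-leukocyte genes differed between the samples, so E2f2 was also set against leukocyte genes. Per 1000 counts of 14 pan-leukocyte genes, the sarcomas held 5.42 (mouse 1267), 8.52 (1268_1270), 7.47 (2721) and 6.43 (948) counts of E2f2. The marrows held 9.87 to 21.9, with a mean of 15.8 ± 4.58 (SD). On this scale sarcoma 1268_1270 was the highest of the 4 and no longer stood apart, and the SMC3+/- sarcomas lay below every marrow. How many of all genes do so on this scale was not counted. E2f2 was picked for this contrast, so nothing is read from that. The sarcoma of mouse 841, at 11.2, lay inside the marrow range on this scale, although it was below all marrows in CPM. With all genes scaled to the pan-leukocyte genes, the log2 difference of E2f2 was -1.18 (SE 0.51), and those of the other 8 members lay between 0.24 for E2f8 and 3.05 for Rb1. That scaling put the median of all genes at 2.13, against 0.07 with TMM. Each of the 8 others thus turns positive or stays so, and E2f2 alone of the members remains negative. Of all genes tested, 3.97% were negative with that scaling. All 14 pan-leukocyte genes had a negative log2 difference with TMM, with a median of -0.72.

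**Figure D3:**
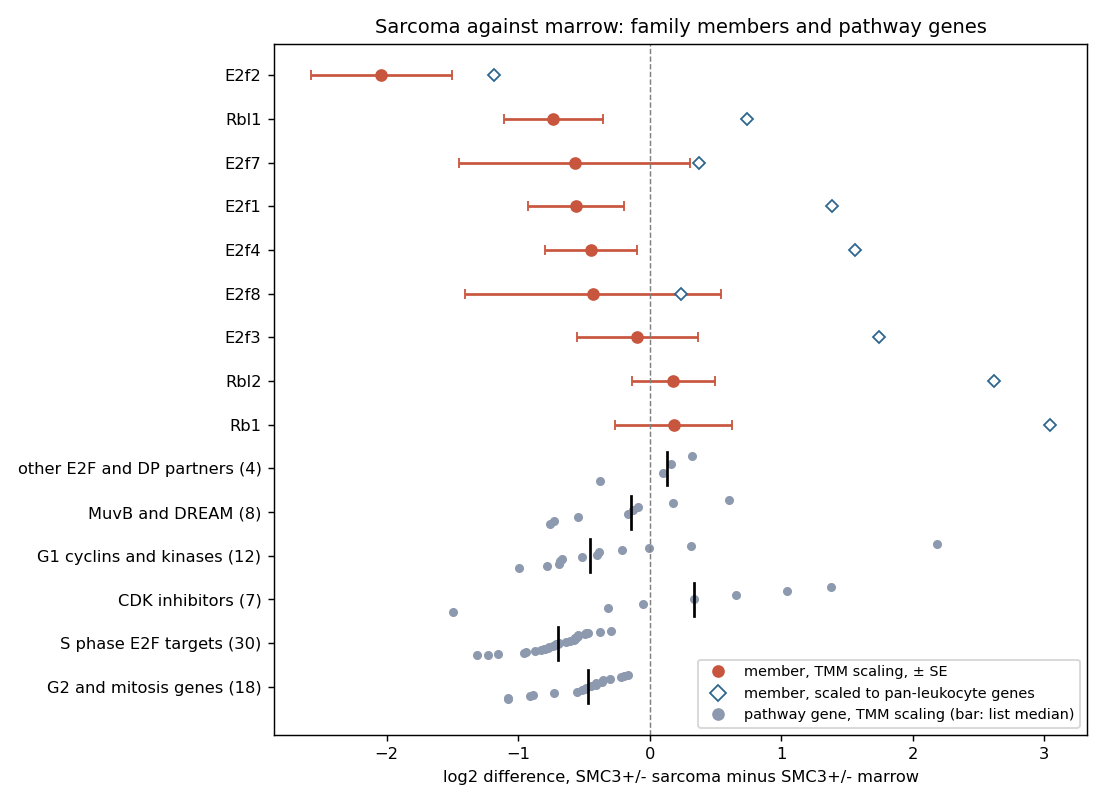
Log2 difference of SMC3+/- sarcoma minus SMC3+/- marrow for the 9 members (filled points with SE, TMM scaling; open diamonds, scaled to pan-leukocyte genes) and for 79 other pathway genes in 6 lists (grey points, with the list median as a bar). E2f2 lies at -2.04 with TMM and -1.18 with pan-leukocyte scaling, the 30 S phase genes all lie below 0 with TMM, and Ccnd2 lies at 2.19.

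Erythroid markers were examined because E2f2 is known in erythroid maturation. Sums are over 12 markers without the globins, since pairs of near-identical globin genes carry the same counts in the table. The sarcoma of mouse 841 had 192 CPM. Marrow 737 had the lowest erythroid sum, 37.8 CPM, with E2f2 at 173 CPM, and marrow 1103 the highest, 675 CPM, with E2f2 at 182 CPM. Marrow 949, with the highest E2f2 of all, had 497 CPM. The SMC3+/- sarcomas had 71.5 to 431 CPM, inside the marrow range. Marrow 949 also had the highest summed B lineage markers, at 517 CPM, against 12.4 to 143 CPM in the other marrows. Marrow 737 is 1 of the libraries low in long transcripts. Tfrc alone gave 30.6 of its 37.8 CPM, and 141 of the 675 CPM in marrow 1103. The part of erythroid cells in the E2f2 level was not tested.

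**Figure D4:**
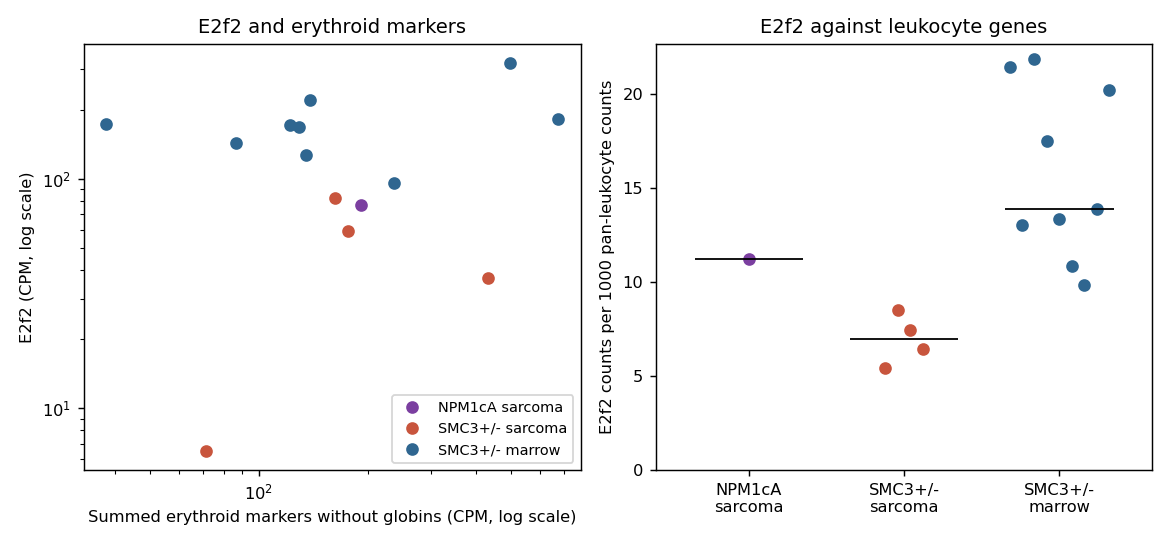
Left, E2f2 (CPM) against the summed erythroid markers without globins (CPM), both on log axes, for each of 14 samples. Right, E2f2 counts per 1000 pan-leukocyte counts, each point a sample and each line a group median, with 5.42 to 8.52 in SMC3+/- sarcomas, 9.87 to 21.9 in marrow and 11.2 in the NPM1cA sarcoma of mouse 841.

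The genes whose pattern was most like E2f2 were sought among 10156 genes by Pearson's r of log2 CPM over the 14 samples, which share tissue and leukocyte content. The 5 highest were Nfam1, an immune receptor adaptor (r = 0.94), S1pr4, a sphingosine-1-phosphate receptor (0.94), Stx11, a syntaxin of immune cells (0.93), Laptm5, a lysosomal protein of leukocytes (0.93), and Ptpn6, the phosphatase SHP-1 (0.93). Within the 9 marrows r was 0.94 for Nfam1, 0.64 for S1pr4, 0.66 for Stx11, 0.78 for Laptm5 and 0.88 for Ptpn6. None of the 5 is a gene of the cell cycle lists, and Laptm5 is 1 of the pan-leukocyte genes used above. Of the members, Rbl1 came closest (r = 0.61, rank 740), and that value fell to 0.07 without sarcoma 1268_1270. Rb1 had r = -0.13 over the 14 samples and 0.88 within the 9 marrows.

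Genes that work with the family or downstream of it were read from 6 lists of 79 genes, and none was called in sarcoma against marrow. edgeR called 0 of the 79 at an adjusted p under 0.05, where it called 4.55% of all genes, DESeq2 and limma-voom also called 0, and 2 had an unadjusted p under 0.05. Of the 79, 68 had a negative log2 difference, with a median of -0.54, against 45.4% of all genes and a median of 0.07. None of the 79 had a more negative difference than E2f2, which 203 of the 14730 genes (1.38%) did. E2f2 was picked for being low in this contrast, so its rank is a description and nothing is read from it. Scaled to pan-leukocyte genes, 15 of the 79 were called higher and the median was 0.52.

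Of the S phase targets, all 30 had a negative difference, none was called, and the median was -0.70. Mcm5, a helicase subunit of replication origins, averaged 110 ± 86.9 CPM in sarcomas and 239 ± 104 CPM in marrow (SD), a log2 difference of -1.23 (SE 0.61, adjusted p = 0.419). Ung, which removes uracil from DNA, had -1.31 (SE 0.61, adjusted p = 0.364), Ezh2, a histone methyltransferase, -0.80 and Slbp, which binds histone mRNA, -0.76. Sarcoma 1268_1270 stood apart, with a mean log2 CPM over the list of 3.03, against 5.37 to 6.41 in the other 3 sarcoma mice and 5.61 to 6.31 in marrow. The sarcoma of mouse 1267, with the most E2f1 and E2f8, had a higher list mean than any marrow while its E2f2 was lower than in any marrow. Without sarcoma 1268_1270, 29 of the 30 stayed negative with a median of -0.37, and scaled to pan-leukocyte genes 4 of the 30 did, with a median of 0.38. Without the 4 libraries low in long transcripts all 30 were negative, with a median of -0.80. Without these and sarcoma 1268_1270, 29 were negative, with a median of -0.52.

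Of the G2 and mitosis genes, all 18 had a negative difference with a median of -0.47, and none was called. The kinases Aurka and Aurkb had log2 differences of -1.08 each, and Cdc20, an activator of the anaphase-promoting complex, -0.91 (adjusted p = 0.426, 0.578 and 0.677). Without sarcoma 1268_1270, 13 of the 18 were negative and the median was -0.06, and scaled to pan-leukocyte genes 5 were negative and the median was 0.25. Without the 4 libraries low in long transcripts all 18 were negative, with a median of -0.80. Without these and sarcoma 1268_1270, 16 were negative, with a median of -0.42. Sarcoma 1268_1270 had a mean log2 CPM of 2.12 over this list, against 6.04 to 6.94 in the other sarcoma mice and 5.23 to 6.91 in marrow.

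G1 cyclins and their kinases act on the pocket proteins, and their list also holds Myc, Skp2, Cks1b and Cdc25a. Of its 12 genes, 10 had a negative difference and the median was -0.46. Ccne1, a cyclin E, had -0.995 (adjusted p = 0.536), Ccnd3 -0.69 (adjusted p = 0.393) and Cdk4 -0.68 (adjusted p = 0.714). Ccnd2, another D-type cyclin, went the other way with 2.19 (SE 0.78, adjusted p = 0.159), and its 4 sarcoma mice ran from 9.56 to 507 CPM, around a marrow range of 14.7 to 49.0 CPM. The CDK inhibitors were split, with 3 of 7 negative and a median of 0.34. Cdkn2d, the inhibitor p19 of D-type kinases, had -1.50 (SE 0.62, adjusted p = 0.260), and Cdkn2b, p15, 1.38 (SE 0.84, adjusted p = 0.577).

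The DREAM complex represses cell cycle genes with p107 or p130. Of 8 genes in the MuvB and DREAM list, Mybl2, Foxm1 and Dyrk1a among them, 6 were negative with a median of -0.14. Rbbp4, a histone-binding subunit, had -0.76 and Foxm1, an activator of mitotic genes, -0.73. Among the 4 partners, Tfdp1, the main dimerization partner of E2Fs, had 192 ± 112 CPM in sarcomas and 231 ± 60.5 CPM in marrow (SD), a log2 difference of -0.37 (SE 0.42, adjusted p = 0.866). E2f5, E2f6 and Tfdp2 had 0.32, 0.16 and 0.10. None of these 12 genes was called.

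The comparison of the NPM1cA sarcoma with the SMC3+/- sarcomas asks whether the cohesin genotype goes with another family level. This contrast was not used to choose the genes. The low E2f2 of sarcomas was used, so the E2f2 difference is not independent of that choice. The sarcoma of mouse 841 had 77.0 CPM of E2f2, inside the range of the SMC3+/- sarcomas, a log2 difference of 0.75 (SE 1.12, adjusted p = 0.9999 by edgeR). E2f8 showed the largest difference, at 131 CPM in mouse 841 and 62.7 ± 63.7 CPM in SMC3+/- sarcomas (SD, n = 4), with 1.08 (SE 1.58). The other 7 members lay between -0.43 for Rb1 (SE 0.73) and 0.61 for E2f7 (SE 1.32). All 9 values of mouse 841 were inside the range of the SMC3+/- sarcoma libraries. Of the members 0 of 9 were called by edgeR, as were 0.0% of the 17762 genes tested, and 0 of 9 had an unadjusted p under 0.05. The lowest adjusted p of a member over 14 alternatives, with DESeq2 and limma-voom among them, was 0.961. Over all genes 236 had an unadjusted p under 0.05, DESeq2 called 65 and limma-voom 0.

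With 1 tumour of the NPM1cA genotype the fit assumes that it varies as the others do, and the interval of about 2 SE around the E2f2 difference holds large changes both ways. None of the 79 pathway genes was called in this comparison by edgeR, DESeq2 or limma-voom, none had an unadjusted p under 0.05, and 36 were negative and 43 positive. Myc, which drives growth and G1 entry, stood at 273 CPM in mouse 841 and 99.4 ± 67.8 CPM in the SMC3+/- sarcomas (SD), a log2 difference of 1.45 (SE 1.06). The CDK inhibitor Cdkn2c, p18, stood at 20.1 CPM and 90.8 ± 68.1 CPM, a difference of -2.18 (SE 1.38), and Cdkn1c, p57, at 119 CPM and 55.4 ± 38.1 CPM, a difference of 1.15 (SE 0.88). Scaled to pan-leukocyte genes, E2f1, E2f3, E2f4, Rbl1 and Rbl2 change sign in this comparison, and the median of all genes is -1.79, against -0.33 with TMM.

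Within marrow alone, the members were set against the mean log2 CPM of the S phase list and of the erythroid list. The choice of genes used the E2f2 level of marrow against sarcoma, and not the differences among marrows. The 6 marrows not low in long transcripts were used, and the 18 relations were tested by an exact two-sided permutation test with Benjamini-Hochberg adjustment. None of the 18 passed the adjustment, the smallest adjusted p being 0.188, and 2 had an unadjusted p under 0.05. E2f1 had r = 0.81 with the S phase list (rho = 0.83, exact p = 0.0208 for r and 0.0583 for rho), and r = 0.79 without the 2 farthest marrows. E2f2 had r = -0.71 (rho = -0.77, exact p = 0.106 and 0.103), and r = -0.44 without the 2 farthest. Each value without the 2 farthest rests on 4 mice. With the erythroid list E2f2 had r = 0.55 (rho = 0.66, exact p = 0.272 and 0.175), and r = 0.79 without the 2 farthest. Rbl1 had r = -0.80 with the erythroid list (rho = -0.83, exact p = 0.0125 and 0.0583), and r = -0.98 without the 2 farthest. Both erythroid relations rest on few mice. Over all 9 marrows r was 0.49 for E2f2 and -0.80 for Rbl1, and without the 2 farthest of the 9 it was 0.0276 and -0.40. With each globin of identical counts taken once, the 6 marrows gave 0.56 and -0.81, and 0.33 and -0.34 without the 2 farthest.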

How the data were processed

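Poly(A) RNA of 16 libraries was sequenced after spike-in RNA was added, per the labels' protocols. The authors deposited 1 table of raw counts per gene symbol, whole numbers with another sum in every library. The submitters' processing notes name STAR, DESeq, DESeq2 and mm9, with no version or role. The sources used here give neither the annotation nor the strand setting. There were 0 spike-in rows and 0 rows without a name, and 2844 symbols had no count.

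Libraries of 1 mouse and tissue were summed, which left 14 samples: 1 NPM1cA sarcoma, 4 SMC3+/- sarcoma mice and 9 marrow mice. No pair of libraries agreed within sampling noise (lowest mean chi-square over genes 18.6, between the tumours of mouse 2721). TMM scaling, filterByExpr and the two-sided quasi-likelihood test of edgeR 4.0.16 (R 4.3.3, robust) were used, with Benjamini-Hochberg adjustment over all genes at 0.05. The SE is the absolute log2 difference divided by the square root of F. p-values measure the spread between these mice. Lengths are of the longest coding transcript in GENCODE M21, by symbol, found for 93.8% of the 10185 genes whose mean log2 CPM reached 3. Alternatives were DESeq2 1.42.0, limma-voom (limma 3.58.1), other scalings and filters, left-out libraries and the mouse as a block. The animal label pairs both tissues of mice 1267 and 2721, whose deviations from the tissue means correlated at 0.32 and 0.24. Scripts were tested on simulated data.

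The members and gene lists were chosen with earlier results of these data known. Named genes were all members, up to 4 genes per pathway list with the smallest unadjusted p between tissues and up to 2 for mouse 841 (a part is printed, picked after their values were seen), and the 5 genes most correlated with E2f2.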

Additional observations from a re-analysis of the deposited data

Results flagged for a closer look

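E2f1 in the sarcoma of mouse 1267 stood at 72.0 CPM, against 32.6 CPM in mouse 2721, the next of the 4 SMC3+/- sarcoma mice. The gap took up 0.844 of the range of the group, above the critical value of 0.829 for 4 samples. This was 1 of 18 such comparisons of members and groups, and chance alone gives about 1 in 20.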

How the results depend on the processing

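The log2 difference of E2f2 between sarcoma and marrow was negative under all 25 alternatives, from -2.35 (limma-voom) to -1.18 (pan-leukocyte scaling). E2f2 was picked for being lower in sarcomas, and the alternatives use the same counts, so nothing is read from this sign. The number of genes called in sarcoma against marrow was 670, and it was 8679 with pan-leukocyte scaling, 1368 with no count filter, 130 with the mouse as a replicate block and 114 with that block in mice 1267 and 2721 alone. It was 303 once the 4 libraries short of long transcripts were left out and 62 with sarcoma 1268_1270 left out as well. Leaving out 1 mouse at a time gave 170 (without sarcoma 1268_1270) to 765 calls. Pathway genes called were 15 with pan-leukocyte scaling and 0 under every other alternative, so the replicate block changed none of those. E2f2 lost its call under the replicate block of all mice and kept it in mice 1267 and 2721 alone, and the genes called lower were 23 and 33, against 8. For mouse 841 against the SMC3+/- sarcomas, calls were 0, against 65 with DESeq2, and 0 to 1 when 1 mouse was left out, the 1 without sarcoma 1268_1270.

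Pan-leukocyte scaling turned the sign in that comparison for E2f1 (-0.83), E2f3 (-1.15), E2f4 (-1.19), Rbl1 (-0.31) and Rbl2 (-1.48). E2f3 was also -0.016 with tumour libraries as units, and Rb1 lay between -0.60 and 0.12 when 1 mouse was left out, the positive value without sarcoma 1268_1270. Over all 9 marrows, r with the erythroid list was 0.0014 for E2f3 and 0.19 for E2f7, the opposite sign to 6 marrows. Other causes of these shifts were not tested. The fits without tumour 1 of mouse 948 for mouse 841, and the likeness to E2f2 without sarcoma 1268_1270 or within marrow, and the erythroid mean with each globin taken once, which turned no sign, were chosen after seeing the data. Depth limits E2f7 most, at 6 counts in 1 marrow.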
